A study of Mus musculus with 12 samples.

Results

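The astrocyte genes described here are Gfap, Aqp4, Slc1a2, Slc1a3, Gja1, Gjb6, S100b, Aldoc and Fgfr3. They were taken by symbol from the count files, which held all 9 of them among 24421 genes, and all 9 passed the filter on low counts that left 16364 genes to test. RNA was sequenced from 12 mouse libraries in 4 groups of 3: normal cortex of mice that had received no injection, called naive, and whole brain tumours of the fusions YAP1-TFE3, YAP1-MAMLD1-dR3R1 and YAP1-FAM118B. The tumours followed injection into the brain of RCAS, an avian retroviral vector that enters mouse cells only where its receptor has been introduced, and were snap frozen before total RNA was extracted. YAP1 is the transcriptional co-activator at the end of the Hippo pathway, and the question named in the series' title is what its fusions in tumours share. The labels name no strain, age, receptor promoter or further allele of the mice and do not explain the suffix dR3R1. The tissue label calls the naive libraries brain tumour as well, and the extraction protocol speaks of cultured cells. Whether each library is an animal of its own is not stated. Markers of sex, given below, differ between libraries in every group but YAP1-TFE3. A p-value here rests on the scatter among libraries, part of which, and in YAP1-TFE3 all of which, may come from within an animal rather than between animals.

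Astrocytes are the glial cells that take up glutamate and potassium released by neurons, carry water at the blood vessels and form a network coupled by gap junctions. The 9 genes cover these tasks: Gfap encodes the intermediate filament of the astrocyte skeleton, Aqp4 the water channel of the endfeet, Slc1a2 and Slc1a3 the glutamate transporters GLT-1 and GLAST, and Gja1 and Gjb6 the connexins 43 and 30. S100b encodes a calcium-binding protein, Aldoc the brain aldolase of glycolysis, and Fgfr3 a receptor for fibroblast growth factors. Injury and tumours in the brain are known to make astrocytes reactive, a state in which Gfap and vimentin are raised. Several of the genes are also used outside astrocytes: Gfap, Slc1a3 and Fgfr3 in radial glia, and S100b in some oligodendrocyte lineage cells, Schwann cells and melanocytes.

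Total counts were between 19850220 and 24760814 per library. Levels are given as CPM, counts scaled to the library size with TMM factors, and none of the 9 genes was at 0 in any library. Markers of the other cells of the brain moved with the groups. The summed CPM of 10 neuron genes was 7103 to 10076 in naive libraries, 532 to 1396 in YAP1-MAMLD1-dR3R1, 3851 to 5847 in YAP1-FAM118B and 101 to 1028 in YAP1-TFE3 tumours. For 10 myelin genes the sums were 6176 to 12318, 1974 to 4571, 2212 to 5253 and 599 to 957 in the same order, and for 10 microglia and macrophage genes they were 200.4 to 259, 5582 to 8398, 1767 to 2079 and 1344 to 4089. In whole tissue, fewer astrocytes and less RNA per astrocyte cannot be told apart, and the part that the makeup of the tissue has in the values below was not tested. The naive libraries also differed in region markers: 8 forebrain genes summed to 593, 558 and 291 CPM in replicates 1 to 3 and 10 genes of hypothalamus and midbrain to 162, 123 and 411 CPM. In tumours the latter summed to 2.63 to 36.7 CPM and the former to 19.9 to 380.0 CPM, and the part of the region was not tested. Without naive replicate 3, 3, 0 and 7 of the 9 genes were called against naive with MAMLD1, FAM118B and TFE3 as the partner, in place of 4, 1 and 8. Naive replicate 2 and YAP1-FAM118B replicate 2 each held reads of both Xist (25.6 and 162 CPM) and the Y-linked Ddx3y (49.3 and 29.9 CPM). Without both libraries 3 of the 9 genes were called against naive in YAP1-MAMLD1-dR3R1 in place of 4, and the counts for YAP1-FAM118B (1) and YAP1-TFE3 (8) stayed as they were. Naive replicate 3, YAP1-MAMLD1-dR3R1 replicate 1 and YAP1-FAM118B replicate 1 held Xist (305, 493 and 320 CPM) and next to no Ddx3y. The remaining libraries held Ddx3y and next to no Xist, among them all 3 of YAP1-TFE3 (Ddx3y 69.8, 68.9 and 87.8 CPM). Sex was thus not balanced between the groups, and its part was not tested.

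**Figure D1:**
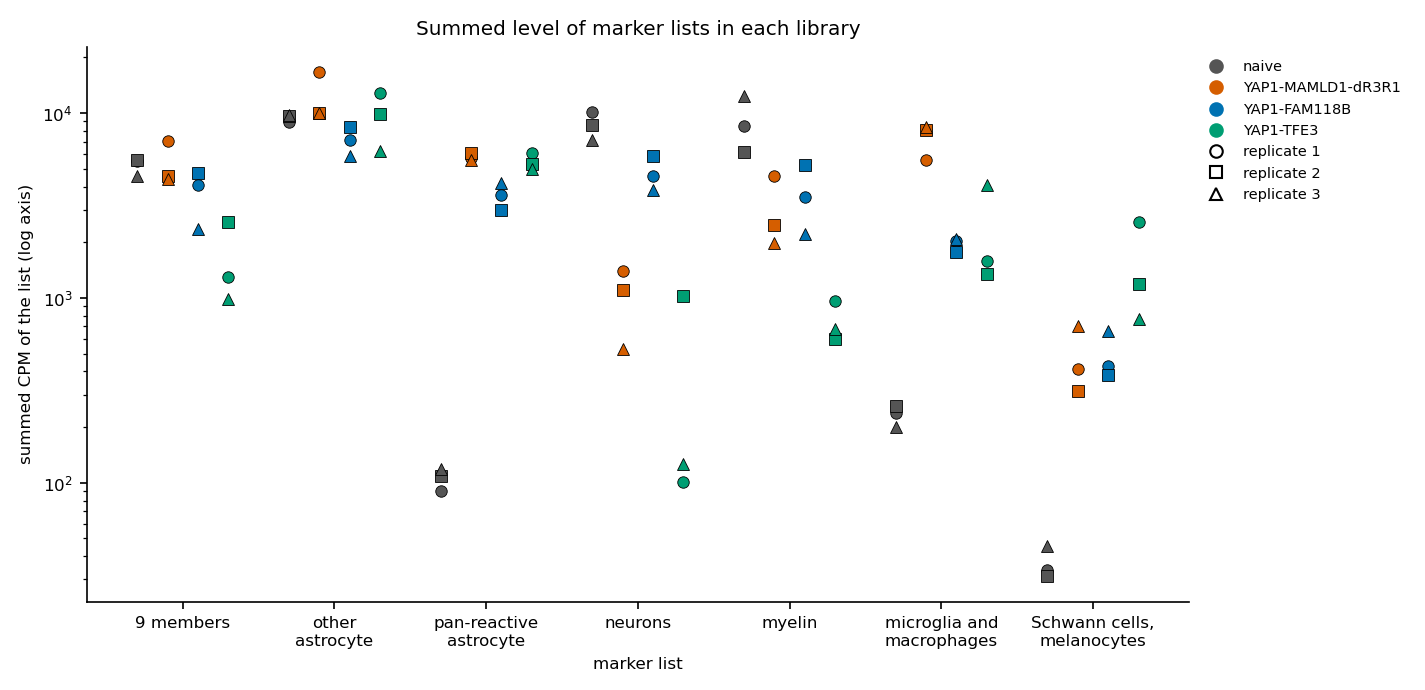
Summed CPM of 7 marker lists in each library on a log axis, with colour for the group and marker shape for the replicate. The 9 astrocyte genes summed to 4553 to 5583 CPM in naive libraries and to 980 to 2559 in YAP1-TFE3 tumours, while neuron and myelin genes were also lower in every tumour library than in every naive one.

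Gfap was the only one of the 9 genes called higher in YAP1-MAMLD1-dR3R1 tumours. In naive libraries it stood at 175, 250.2 and 280.0 CPM for replicates 1 to 3. In YAP1-MAMLD1-dR3R1 tumours it stood at 4249, 2578 and 2987 CPM. All 3 of these tumours lay far above every naive library, and Gfap was 3.80 ± 0.96 higher on the log2 scale (SE, edgeR quasi-likelihood test, adjusted p = 0.00637). YAP1-FAM118B tumours held 893, 884 and 71.0 CPM, so that 2 libraries lay above naive cortex and replicate 3 below it. YAP1-TFE3 tumours held 164, 959 and 168 CPM, with replicate 2 above and the other two just below the naive range. Neither group differed from naive in the edgeR test, with log2 fold changes of 1.39 ± 0.88 (adjusted p = 0.254) and 0.87 ± 0.87 (adjusted p = 0.383). Without replicate 2 the YAP1-TFE3 value changed sign to -0.74, still not called. That replicate also had the highest summed neuron markers of its group, at 1028 against 101 and 126 CPM, whose part in the Gfap value was not tested. The libraries of each of these tumour groups therefore did not agree on Gfap.

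The promoter of Gfap is shown because Stat3, a transcription factor known to act on this gene in reactive astrocytes, was itself higher in every fusion. Gfap lies on chromosome 11 at 102887336 to 102897200 of GRCm38.p6. The window runs from 250 bases before to 50 bases after the RefSeq start at chr11:102897151-102897450 on the minus strand, written 5′ to 3′, with capitals for a match to the STAT letters TTCNNNGAA.
Gfap: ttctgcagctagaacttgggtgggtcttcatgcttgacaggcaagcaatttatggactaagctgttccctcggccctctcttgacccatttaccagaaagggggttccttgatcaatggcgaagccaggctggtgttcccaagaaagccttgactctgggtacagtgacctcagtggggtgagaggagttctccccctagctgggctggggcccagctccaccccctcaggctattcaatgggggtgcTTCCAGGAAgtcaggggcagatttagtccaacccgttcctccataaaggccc
The match begins 2 bases before the start site. These letters were found on either strand in 8.3% of 32851 RefSeq windows of the same length, and in 3 of the 10 windows held for 8 of the 9 genes, namely those of Gfap and Slc1a3 and the second window of Aldoc. A match is a description of the sequence and says nothing of binding in these tumours.

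Aqp4, on chromosome 18 at 15389394 to 15410982, was called lower in YAP1-TFE3 tumours and in no other group. Naive libraries held 153, 184 and 248 CPM, and YAP1-TFE3 tumours 73.0, 76.0 and 39.9 CPM, all below the naive range. The log2 fold change was -1.63 ± 0.55 (edgeR, adjusted p = 0.0221). It missed the threshold without naive replicate 3 (adjusted p = 0.0661) or without YAP1-TFE3 replicate 3 (adjusted p = 0.0535). YAP1-MAMLD1-dR3R1 tumours held 557, 399 and 215 CPM, with 2 libraries above the naive range and replicate 3 inside it, a log2 fold change of 1.00 ± 0.54 (edgeR, adjusted p = 0.13). In YAP1-FAM118B tumours, at 145, 251 and 47.5 CPM, the libraries lay on both sides of the naive range (log2 fold change -0.40 ± 0.54, edgeR adjusted p = 0.588), and without replicate 3 the value was 0.02.

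The genes of the complex that holds Aqp4 at the endfeet moved in both directions. Of 6 such genes, 4 were higher and 1 lower than naive in YAP1-TFE3, 2 higher and 2 lower in YAP1-MAMLD1-dR3R1, and 1 higher and 2 lower in YAP1-FAM118B. Among all genes tested, 40.6%, 34.4% and 21.3% were higher in the same order, and 30%, 28.8% and 8.45% lower. Dag1, the dystroglycan that anchors the complex to laminin, was higher in each fusion, by 1.71 ± 0.27, 0.80 ± 0.27 and 2.29 ± 0.28, where a run of 3 log2 fold changes, here and in what follows, has the order MAMLD1, FAM118B, TFE3. Sntb1, a syntrophin, was higher in YAP1-MAMLD1-dR3R1 (1.68 ± 0.65) and YAP1-TFE3 (3.07 ± 0.68). The dystrophin gene Dmd was lower in all 3, at -0.94, -0.92 and -0.99 with SE 0.25 each. Dtna, which encodes a dystrobrevin, was lower in YAP1-MAMLD1-dR3R1 (-0.90 ± 0.13) and YAP1-FAM118B (-0.65 ± 0.13) and higher in YAP1-TFE3 (0.49 ± 0.13), the last not called when libraries were scaled by total count alone. The YAP1-FAM118B calls of Dag1 and Dmd and the YAP1-MAMLD1-dR3R1 call of Sntb1 were lost when single libraries were left out.

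The glutamate transporter Slc1a2 was lower in 2 of the 3 fusions. Its naive libraries held 3214, 3057 and 2094 CPM. YAP1-TFE3 tumours held 87.8, 396 and 44.2 CPM, a fall of 3.99 ± 0.76 on the log2 scale (edgeR, adjusted p = 0.00103). YAP1-MAMLD1-dR3R1 tumours held 847, 465 and 304 CPM, a log2 fold change of -2.37 ± 0.71 (edgeR, adjusted p = 0.0149). All 6 of these libraries lay below every naive one, although the YAP1-MAMLD1-dR3R1 call was lost without its replicate 2 (adjusted p = 0.0584) or 3 (adjusted p = 0.0625). YAP1-FAM118B tumours, at 1631, 1870.0 and 1246 CPM, also lay below the naive range, but their log2 fold change of -0.82 ± 0.68 was not called (edgeR, adjusted p = 0.383). Slc1a2 lies on chromosome 2 at 102658239 to 102790784, and 1.44% of its exon bases are shared with Gm13872 on the opposite strand.

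Slc1a3, the other astrocyte glutamate transporter, changed in YAP1-TFE3 tumours alone among the comparisons with naive. Naive libraries held 677, 757 and 603 CPM and YAP1-TFE3 tumours 77.4, 248 and 143 CPM, which do not overlap. The log2 fold change was -2.12 ± 0.41 (edgeR, adjusted p = 0.00107). YAP1-MAMLD1-dR3R1 tumours, at 578, 505 and 373 CPM, lay just below the naive range (-0.48 ± 0.39, adjusted p = 0.302 by edgeR). YAP1-FAM118B tumours, at 552, 781 and 367 CPM, overlapped it (-0.26 ± 0.39, adjusted p = 0.628 by edgeR). Unlike Gfap, Slc1a3 was called higher in no fusion. Its promoter, chr15:8710758-8711057 on the minus strand with the gene at 8634124 to 8710807 of chromosome 15, is shown for comparison with that of Gfap, with capitals for the same STAT letters.
Slc1a3: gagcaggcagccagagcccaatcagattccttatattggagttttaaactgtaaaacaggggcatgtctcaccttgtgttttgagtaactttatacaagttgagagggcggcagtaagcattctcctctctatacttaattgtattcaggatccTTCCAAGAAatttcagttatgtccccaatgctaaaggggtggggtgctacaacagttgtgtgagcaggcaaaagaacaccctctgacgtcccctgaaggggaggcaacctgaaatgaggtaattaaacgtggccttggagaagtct
The match begins 96 bases before the start site.

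Relatives of these transporters moved in both directions. Slc1a1, the transporter EAAC1 of neurons, was lower in YAP1-MAMLD1-dR3R1 (-2.27 ± 0.37) and YAP1-TFE3 (-3.53 ± 0.39), where it went from 149 ± 5.99 CPM in naive cortex to 30.8 ± 2.91 and 12.9 ± 7.34 CPM (SD, n = 3). Slc1a5, the glutamine carrier ASCT2, was higher in every fusion, by 2.91 ± 0.42, 2.73 ± 0.42 and 3.73 ± 0.43, from a naive level of 3.77 ± 0.678 CPM. Glul, the glutamine synthetase with which astrocytes convert the glutamate they take up, stood at 1288 ± 162 CPM in naive cortex and fell in YAP1-TFE3 tumours to 527 ± 192 CPM (-1.29 ± 0.38, edgeR adjusted p = 0.0112). It was not called in YAP1-MAMLD1-dR3R1, at 701 ± 308 CPM, nor in YAP1-FAM118B, at 967 ± 284 CPM. Slc1a5 and Glul were singled out after their values were seen.

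The connexin genes Gja1 and Gjb6 both fell in YAP1-TFE3 tumours. Gja1 held 196, 236 and 236 CPM in naive libraries and 39.6, 36.5 and 61.5 CPM in YAP1-TFE3, a log2 fold change of -2.28 ± 0.62 (edgeR, adjusted p = 0.00749). Gjb6 held 49.7, 61.3 and 62.7 CPM in naive libraries and 2.07, 5.76 and 1.72 CPM in YAP1-TFE3, a log2 fold change of -4.18 ± 0.82 (edgeR, adjusted p = 0.00115), close to that of Slc1a2. No YAP1-TFE3 library reached the naive range of either gene.

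In YAP1-MAMLD1-dR3R1 tumours the libraries were spread widely for both connexins. Gja1 held 185, 74.8 and 19.0 CPM, all below naive, with a log2 fold change of -1.26 ± 0.60 (edgeR, adjusted p = 0.0889). Gjb6 held 31.6, 9.76 and 2.39 CPM, with a log2 fold change of -1.98 ± 0.74 (edgeR, adjusted p = 0.0369). Replicate 1 was the highest of its group for both, as it was for Gfap, Aqp4, Slc1a2, Slc1a3, Aldoc and the sums of neuron and myelin genes, whose part was not tested. Without replicate 1 Gja1 was called as well (-2.25, edgeR adjusted p = 0.00487), whereas the Gjb6 call was lost in 10 of 22 alternative settings (adjusted p up to 0.133). YAP1-FAM118B tumours held 144, 163 and 112 CPM of Gja1 and 34.6, 39.0 and 35.4 CPM of Gjb6. These libraries lay below the naive range for both genes, with equal log2 fold changes of -0.67 and edgeR adjusted p of 0.407 and 0.492.

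Gja1 lies on chromosome 10 at 56377300 to 56390419 and Gjb6 on chromosome 14 at 57123301 to 57133611. Their promoter windows, chr10:56377050-56377349 on the plus strand and chr14:57133562-57133861 on the minus strand, are printed side by side because the proportion of the connexins varied between libraries. Capitals mark a match to the AP-1 letters TGANTCA, which 7.81% of all windows hold.
Gja1: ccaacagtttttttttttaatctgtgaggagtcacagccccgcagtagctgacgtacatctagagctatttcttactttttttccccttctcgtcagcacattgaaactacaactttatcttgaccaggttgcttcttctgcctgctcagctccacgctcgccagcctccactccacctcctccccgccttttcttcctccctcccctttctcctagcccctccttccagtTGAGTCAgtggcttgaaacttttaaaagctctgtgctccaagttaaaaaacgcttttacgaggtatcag
Gjb6: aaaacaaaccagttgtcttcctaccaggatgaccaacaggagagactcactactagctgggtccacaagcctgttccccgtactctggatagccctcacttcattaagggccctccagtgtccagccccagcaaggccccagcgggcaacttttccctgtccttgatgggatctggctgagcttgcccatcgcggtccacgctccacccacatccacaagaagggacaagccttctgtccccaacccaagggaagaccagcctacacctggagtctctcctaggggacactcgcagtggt
The match in Gja1 begins 19 bases before its start. All motifs were searched on both strands. TEAD, the DNA-binding partner of YAP1, was searched as GGAATG, which 14.7% of all windows and 2 of the 10 windows of these genes hold. The E-box of MiT/TFE factors, the family of TFE3, was searched as CACGTG, which 7.15% of all windows and none of the 10 hold. Their M-box was searched as TCATGTG, which 3.77% of all windows and none of the 10 hold. Aqp4 had no window, and the start site used for Slc1a2 lies 48199 bases from the start of that gene. None of the 5 motifs was in the window of Gjb6, which says only that these letters are not there.

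A connexin of oligodendrocytes, which pair their connexins with those of astrocytes, was lower as well. Gjb1, for connexin 32, was called in YAP1-TFE3 only (-3.79 ± 0.75, edgeR adjusted p = 0.00123). The summed myelin genes were also lower in this group, and their part was not tested.

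S100b was the exception among the 9 genes, since it was the only one called higher in YAP1-TFE3 tumours and the only one called lower in YAP1-FAM118B. Naive libraries held 152, 134 and 177 CPM. YAP1-TFE3 tumours held 557, 299 and 375 CPM, all above naive, with a log2 fold change of 1.41 ± 0.27 (edgeR, adjusted p = 0.00108). YAP1-FAM118B tumours held 88.6, 93.1 and 50.3 CPM, all below naive, with a log2 fold change of -0.999 ± 0.27 (edgeR, adjusted p = 0.0197). That call was lost without naive replicate 3 (adjusted p = 0.066) or without YAP1-FAM118B replicate 3 (adjusted p = 0.0629). YAP1-MAMLD1-dR3R1 tumours held 187, 206 and 178 CPM, just above the naive range (0.30 ± 0.27, edgeR adjusted p = 0.347). Of all genes tested, 2.79% were called higher in at least 1 fusion and lower in at least 1 other, as S100b was.

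S100b is also known from melanocytes and Schwann cells. Of 8 markers of these cells, 7 were called higher in YAP1-TFE3 tumours, 4 in YAP1-MAMLD1-dR3R1 and 3 in YAP1-FAM118B, and none was called lower. Among all genes tested, 40.6%, 34.4% and 21.3% were called higher in the same order. The summed level of the 8 was 31.1 to 45.7 CPM in naive libraries and 769 to 2559 CPM with TFE3 as the partner. It was 313 to 705 CPM with MAMLD1 and 383 to 663 with FAM118B. With these last partners most of the sum was Pmp22, at 447 ± 178 and 478 ± 150 CPM (SD, n = 3). Tyrp1 (0.362 and 0.846 CPM) and Dct (0.312 and 0.322 CPM), both of melanocytes, lay there below their naive means of 1.29 and 0.882 CPM. Mlana stood at 0.111 and 0 CPM and Pmel at 1.91 and 1.60 CPM. Pmel, a protein of the melanosome, went from 0.739 ± 0.404 CPM in naive cortex to 979 ± 1117 CPM in YAP1-TFE3 (SD, n = 3). The part of melanocytes and Schwann cells in the level of S100b was not tested. Pmp22, Tyrp1, Dct, Mlana and Pmel were singled out after their values were seen.

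Of 5 other S100 genes, 3 were higher in every fusion and 1 was lower in YAP1-TFE3, where 18.6% and 30% of all genes tested were. S100a11 was higher in every fusion, by 5.26 ± 0.34, 5.60 ± 0.34 and 7.49 ± 0.37, and S100a6 by 4.59 ± 0.57, 4.08 ± 0.55 and 4.56 ± 0.56. S100a1, whose protein can pair with that of S100b, was higher in YAP1-MAMLD1-dR3R1 (1.10 ± 0.20) and in YAP1-TFE3 (3.95 ± 0.22), where it reached 617 ± 119 CPM from 39.9 ± 0.701 CPM in naive cortex, and it was not called in YAP1-FAM118B. S100a10 was higher by 2.86 ± 0.27, 3.31 ± 0.27 and 2.25 ± 0.26. S100a16 went against S100b: it held 55.6 ± 5.34 CPM in naive cortex and 39.2 ± 6.26 CPM in YAP1-TFE3 (SD, n = 3), a log2 fold change of -0.50 ± 0.20 (edgeR, adjusted p = 0.0454), a call lost without single libraries. In YAP1-MAMLD1-dR3R1 it was higher (1.42 ± 0.21), and in YAP1-FAM118B it was not called. S100a10 and S100a16 were singled out after their values were seen. S100b lies on chromosome 10 at 76253836 to 76261319. Its window, chr10:76253586-76253885 on the plus strand, is shown because the gene went against the 7 that fell in YAP1-TFE3 tumours, and it holds none of the 5 motifs.
S100b: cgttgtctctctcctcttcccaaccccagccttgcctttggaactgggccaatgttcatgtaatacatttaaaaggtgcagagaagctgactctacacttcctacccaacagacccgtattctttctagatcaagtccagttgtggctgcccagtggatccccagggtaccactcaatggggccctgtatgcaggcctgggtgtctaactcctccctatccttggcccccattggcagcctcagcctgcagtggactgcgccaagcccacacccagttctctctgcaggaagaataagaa

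Aldoc, on chromosome 11 at 78323073 to 78327781, was the steadiest of the genes in naive cortex after Fgfr3. Naive libraries held 765, 781 and 725 CPM. YAP1-MAMLD1-dR3R1 tumours held 345, 215 and 239 CPM, a log2 fold change of -1.51 ± 0.39 (edgeR, adjusted p = 0.00711). YAP1-TFE3 tumours held 287, 481 and 134 CPM, a log2 fold change of -1.33 ± 0.39 (edgeR, adjusted p = 0.0109). Every library of both groups lay below every naive one. So did those of YAP1-FAM118B, at 529, 583 and 381 CPM, although this difference was not called (-0.61 ± 0.38, edgeR adjusted p = 0.255). Aldoa, the aldolase of most other tissues, was lower in YAP1-MAMLD1-dR3R1 (-0.95 ± 0.17) and higher in YAP1-TFE3 (0.92 ± 0.17), with 1601 ± 144 CPM in naive cortex, 830.0 ± 126 and 3018 ± 383 CPM (SD, n = 3).

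Fgfr3, on chromosome 5 at 33721724 to 33737068, held 122, 122 and 127 CPM in naive libraries. In YAP1-TFE3 tumours it held 16.3, 58.4 and 12.2 CPM, a log2 fold change of -2.09 ± 0.49 (edgeR, adjusted p = 0.00339). YAP1-MAMLD1-dR3R1 tumours held 84.6, 107 and 103 CPM (-0.33 ± 0.47, edgeR adjusted p = 0.561) and YAP1-FAM118B tumours 64.2, 87.2 and 60.0 CPM (-0.81 ± 0.47, edgeR adjusted p = 0.221). All 9 tumour libraries lay below all 3 naive ones, but the difference was called in YAP1-TFE3 alone. The other receptors of the family went the opposite way in YAP1-TFE3: Fgfr1 was higher by 2.45 ± 0.48, Fgfr2 by 2.08 ± 0.57 and Fgfr4 by 4.96 ± 1.05, the last from 0.497 ± 0.166 to 15.7 ± 2.17 CPM. In YAP1-MAMLD1-dR3R1 only Fgfr4 was called (3.36 ± 0.99), and in YAP1-FAM118B none. Of the exon bases of Fgfr3, 13.9% are shared with G630022F23Rik on the opposite strand, and without a stated strand setting the reads of these genes cannot be told apart.

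**Figure D2:**
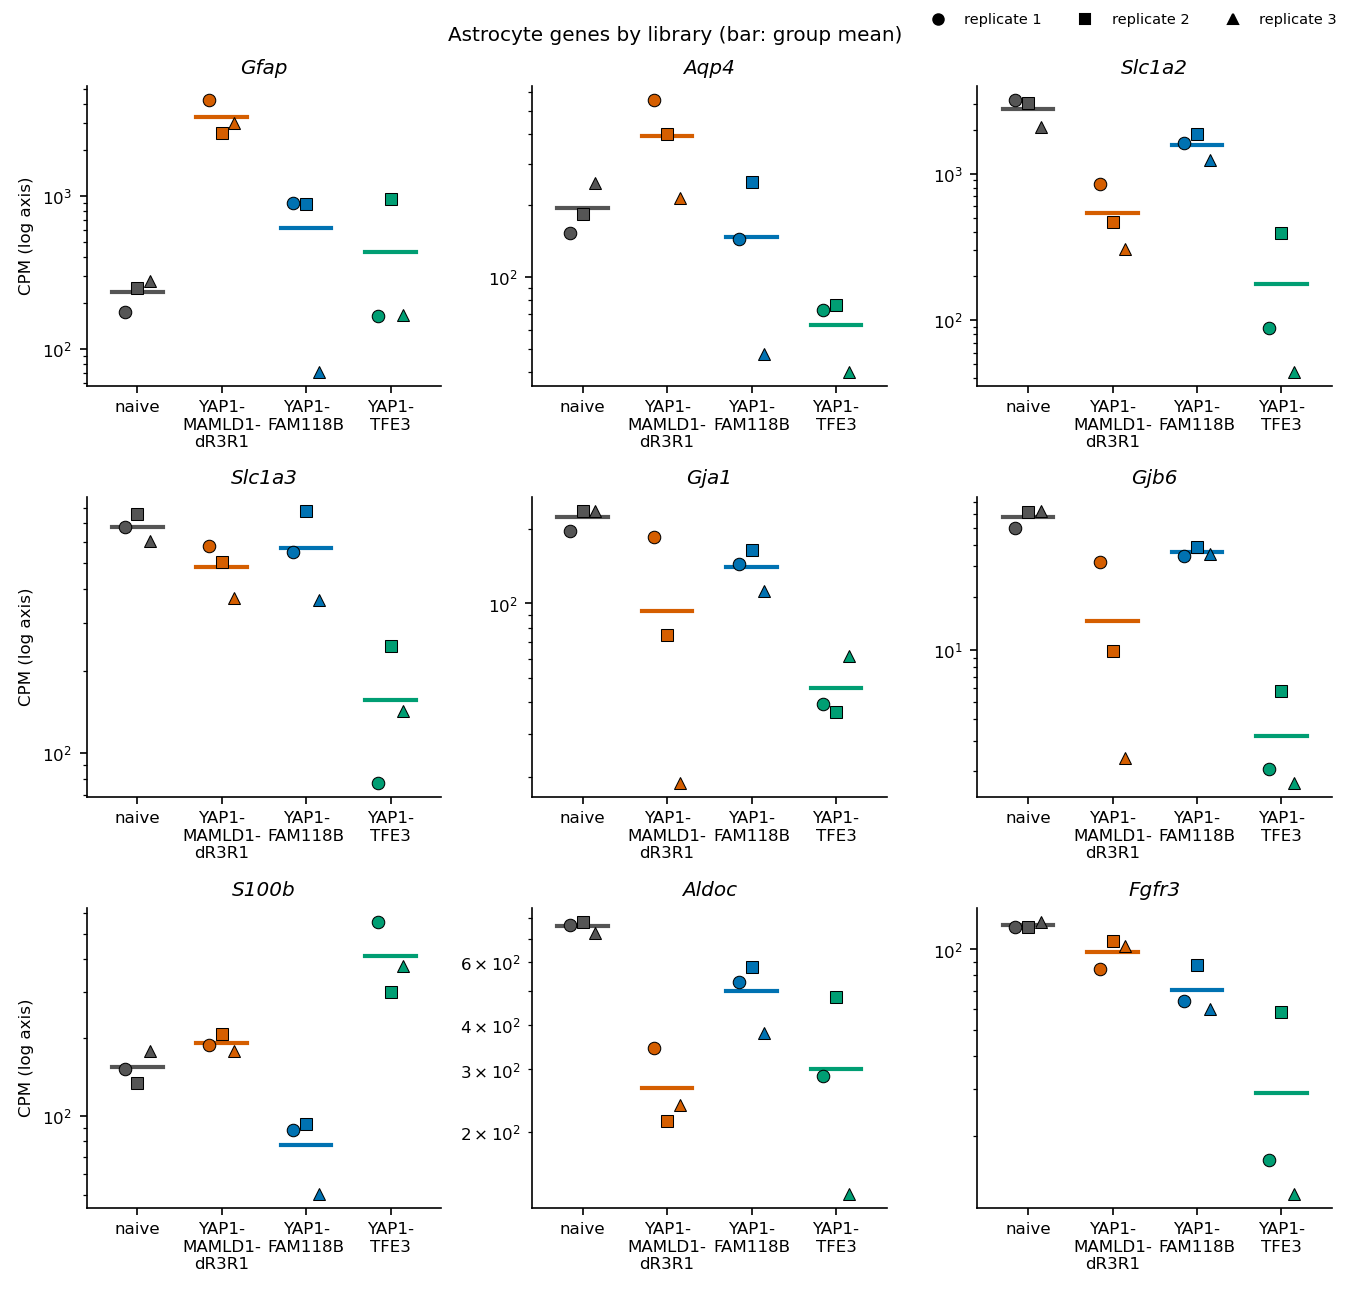
CPM of the 9 astrocyte genes in each library on a log axis, with a bar for the mean of each group of 3 libraries and marker shape for the replicate. YAP1-TFE3 tumours lie below naive for 7 genes and above it for S100b, and Gfap reaches 2578 to 4249 CPM in YAP1-MAMLD1-dR3R1.

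Across the 9 genes, YAP1-TFE3 tumours differed most from naive cortex. There 1 gene was higher, 7 were lower and only Gfap was not called, where 70.6% of all genes tested were called, 40.6% higher and 30% lower. The median log2 fold change of the 9 genes was -2.09 and that of all genes 0.23. In YAP1-MAMLD1-dR3R1 tumours 1 gene was higher (Gfap) and 3 were lower (Slc1a2, Gjb6 and Aldoc), where 63.2% of all genes were called, 34.4% higher and 28.8% lower, with a median of -0.48 against 0.06 for all genes. In YAP1-FAM118B tumours S100b alone was called, where 29.7% of all genes were called, 21.3% higher and 8.45% lower, with a median of -0.67 against -0.05. In YAP1-MAMLD1-dR3R1 and YAP1-FAM118B the share of the 9 called lower, 3 and 1 of 9, was near that of all genes. No gene of the 9 was called in the same direction in all 3 fusions, where 18.6% of all genes were higher and 6.07% lower in all 3.

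By the ranges of the libraries alone, 7 of the 9 genes in YAP1-TFE3 lay wholly below naive and 1 above, where 33.2% and 42.5% of all genes did. In YAP1-MAMLD1-dR3R1, 6 lay below and 2 above (34.9% and 38% of all genes). In YAP1-FAM118B, 6 lay below and 0 above (27.1% and 29.7%). These 6 were Slc1a2, Gja1, Gjb6, S100b, Aldoc and Fgfr3, and all 6 were called lower when only the naive and YAP1-FAM118B libraries were fitted, against 1 in the fit of all groups. Calls in either direction also rose in that fit for the other lists, from 2 to 14 for the further astrocyte genes and from 8 to 13 for family relatives, both described below. The share of all genes called in it is not given here, so the 6 calls cannot be set against it. The 3 comparisons share the naive libraries. With another scaling the median of all genes in the YAP1-TFE3 comparison with naive moved by -0.12 to -0.19, and no call of the 9 genes against naive changed under it.

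**Figure D3:**
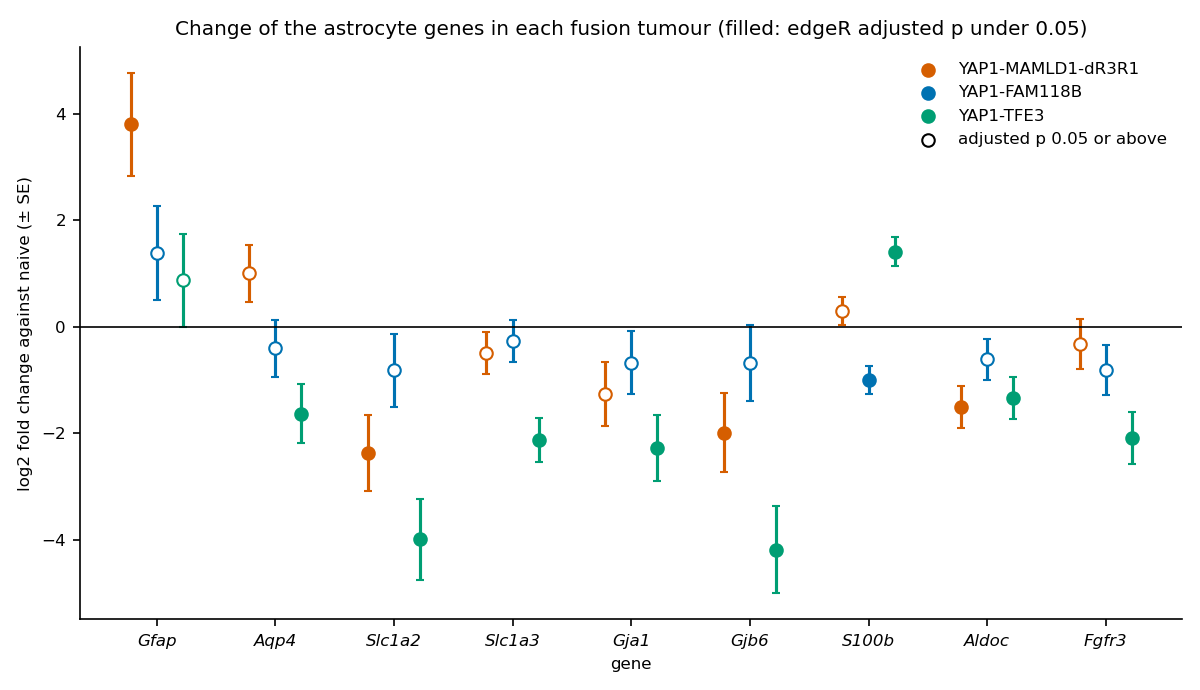
Log2 fold change of each astrocyte gene against naive in the 3 fusions, with SE bars from edgeR and filled points for an adjusted p under 0.05. Gfap in YAP1-MAMLD1-dR3R1 stands at 3.80, S100b is the only filled point above 0 in YAP1-TFE3, and YAP1-FAM118B has 1 filled point.

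Tested directly against each other, the fusions differed in 8 of the 9 genes at least once, Aldoc being the exception. The share of all genes called at least once is not given here, so the 8 cannot be set against it. Between YAP1-TFE3 and YAP1-MAMLD1-dR3R1, 5 genes were lower in YAP1-TFE3 and 1 higher, where 39.5% of all genes were called, 16.9% lower and 22.6% higher. Gfap was lower by 2.93 ± 0.93 (edgeR, adjusted p = 0.0302), a call lost without replicate 1 of YAP1-MAMLD1-dR3R1 or replicates 1 or 3 of YAP1-TFE3 (adjusted p 0.0656 to 0.09). Aqp4 (-2.63 ± 0.57), Slc1a3 (-1.64 ± 0.40), Gjb6 (-2.19 ± 0.76) and Fgfr3 (-1.76 ± 0.49) were also lower, and S100b was higher (1.11 ± 0.27, edgeR adjusted p = 0.00922). For Gjb6 the call was lost in 14 of 22 alternative settings, and without YAP1-TFE3 replicate 1 only 2 genes were called. That of S100b was lost without YAP1-MAMLD1-dR3R1 replicate 3 (edgeR, adjusted p = 0.0509) or YAP1-TFE3 replicate 1 (edgeR, adjusted p = 0.061).

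Between YAP1-TFE3 and YAP1-FAM118B, 5 genes were lower in YAP1-TFE3 and 1 higher as well, where 51.7% of all genes were called, 23.7% lower and 28% higher. The largest of these were Gjb6 (-3.51 ± 0.79), Slc1a2 (-3.17 ± 0.74) and S100b (2.41 ± 0.28, edgeR adjusted p = 0.000133), with Slc1a3 at -1.86 ± 0.41. The calls of Gja1 (-1.61 ± 0.60, edgeR adjusted p = 0.0468) and Fgfr3 (-1.28 ± 0.48, adjusted p = 0.0458) were lost in 10 and 12 of 22 alternative settings. Between YAP1-FAM118B and YAP1-MAMLD1-dR3R1 only S100b was called, lower in YAP1-FAM118B by 1.30 ± 0.27 (edgeR, adjusted p = 0.0116), where 26.2% of all genes were called, 13.5% lower and 12.7% higher. Gfap there differed by -2.41 ± 0.91 (edgeR, adjusted p = 0.0723). Without YAP1-TFE3 replicate 2, which takes part in the shared spread, 4 genes were called in this comparison: S100b and Gfap lower, Slc1a2 and Aldoc higher.

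The proportion of genes with like tasks can be read within each library and so does not depend on scaling. It differed between tumours and naive cortex for the glutamate transporters and did not pass the test for the connexins. Naive cortex held 4.75, 4.04 and 3.47 reads of Slc1a2 for each read of Slc1a3. YAP1-MAMLD1-dR3R1 tumours held 1.47, 0.922 and 0.815, YAP1-FAM118B tumours 2.96, 2.40 and 3.40, and YAP1-TFE3 tumours 1.13, 1.60 and 0.309. The ratio was below every naive library in 9 of 9 tumours, although YAP1-FAM118B replicate 3 lay close to the naive range. The mean log2 ratio was 0.43 in tumours and 2.02 in naive cortex, a difference of -1.59 (exact two-sided permutation test, p = 0.00909, the smallest that 9 against 3 libraries allow, adjusted p = 0.0273 over 3 ratios). With 1 naive library left out, which allows only larger p-values, the adjusted p was 0.109 in this permutation test.

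For the connexins, naive libraries held 3.95, 3.84 and 3.76 reads of Gja1 for each of Gjb6. The ratio was 5.85, 7.65 and 7.86 in YAP1-MAMLD1-dR3R1, 4.15, 4.19 and 3.16 in YAP1-FAM118B and 18.9, 6.31 and 35.3 in YAP1-TFE3. It was thus higher than in every naive library in 8 of 9 tumours and spread widely in YAP1-TFE3, where Gjb6 is near 2 CPM in 2 libraries. The difference of the mean log2 ratio, 0.97, did not pass (exact permutation test, p = 0.1, adjusted p = 0.1). Without YAP1-FAM118B replicate 3 it did (adjusted p = 0.0121).

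Of the 3 ratios, that of Gfap over Slc1a2 differed most. The ratio sets the gene called higher in YAP1-MAMLD1-dR3R1 over a gene called lower there, and was chosen with earlier results of these data known. Its size and p-value are thus given as a description. The log2 ratio of Gfap over Slc1a2 was -3.57 ± 0.65 in naive cortex, -2.03 ± 1.83 in YAP1-FAM118B, 1.37 ± 0.52 in YAP1-TFE3 and 2.70 ± 0.52 in YAP1-MAMLD1-dR3R1 (SD, n = 3). Gfap thus drew more reads than Slc1a2 in every YAP1-MAMLD1-dR3R1 and YAP1-TFE3 library and fewer in all others. In 8 of 9 tumours the ratio was above every naive library, and in YAP1-FAM118B replicate 3, at -4.13, it was inside the naive range. The mean was 4.25 higher in tumours (exact permutation test, p = 0.0273, adjusted p = 0.0409), which no longer passed when any 1 of the libraries other than YAP1-FAM118B replicate 3 was left out (adjusted p 0.0545 to 0.164). Leaving out a library also raises the smallest p that the test allows.

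**Figure D4:**
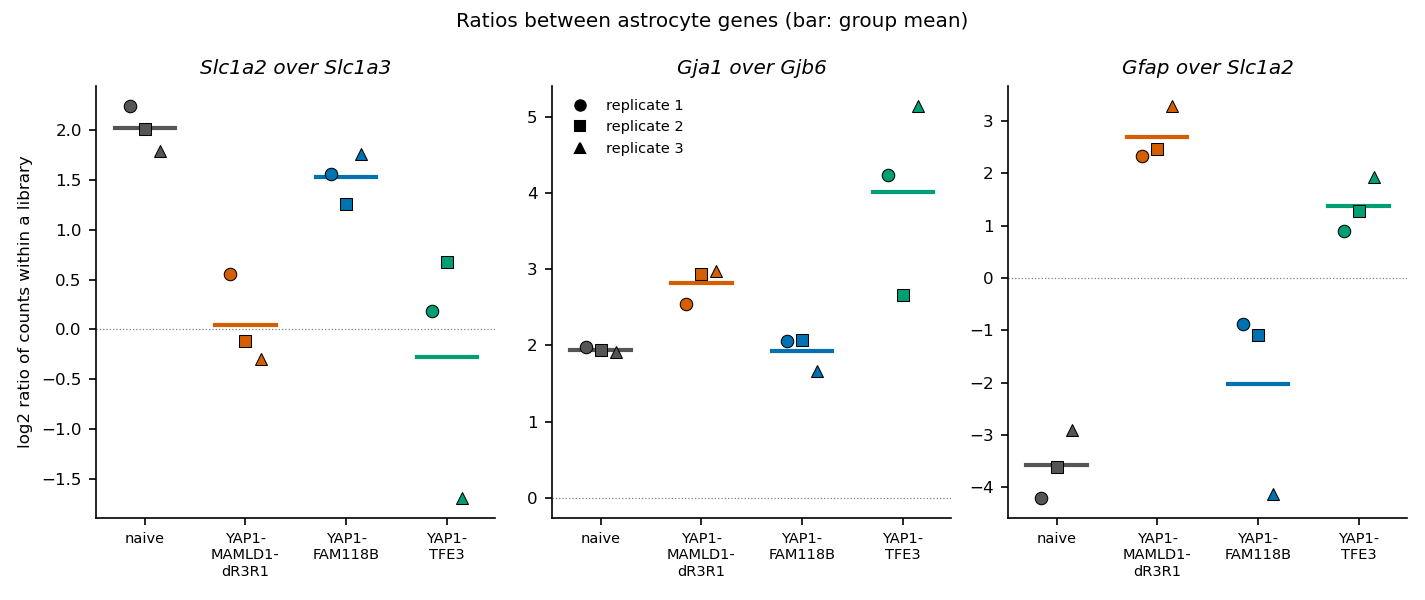
Log2 ratio of counts within each library for Slc1a2 over Slc1a3, Gja1 over Gjb6 and Gfap over Slc1a2, with a bar for the group mean and marker shape for the replicate. All 9 tumours lie below naive in the first panel, and the third runs from -4.20 in a naive library to 3.30 in YAP1-MAMLD1-dR3R1 replicate 3.

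Per kilobase of exon, the order of the 9 genes changed between the groups. In naive cortex Aldoc (232 ± 8.89 CPM per kb) and Slc1a2 (212 ± 46.2) stood highest and overlapped, followed by S100b (104 ± 14.6), Slc1a3 (79.5 ± 9.05), Gfap (55.7 ± 12.9) and Aqp4 (31.3 ± 7.82). Gja1 (21.7 ± 2.24) and Gjb6 (21.7 ± 2.68) did not differ beyond their spread, and Fgfr3 was lowest (17.3 ± 0.445). In YAP1-MAMLD1-dR3R1 tumours Gfap led (775 ± 206), well above S100b (128 ± 9.65) and Aldoc (81.6 ± 21.2), while Aqp4, Slc1a3 and Slc1a2 followed with overlapping ranges. YAP1-FAM118B kept Aldoc (153 ± 32.1) among the highest, beside Gfap (146 ± 112) and Slc1a2 (121 ± 24.0), whose ranges overlapped. In YAP1-TFE3 tumours S100b led (277 ± 89.2), with Gfap (102 ± 109) and Aldoc (92.1 ± 53.2) after it in overlapping ranges. Slc1a2, second in naive cortex, stood at 13.4 ± 14.6 CPM per kb there, and Gjb6 was lowest (1.19 ± 0.838). The 9 genes together summed to 5503, 5583 and 4553 CPM in naive libraries, 7064, 4559 and 4420 in YAP1-MAMLD1-dR3R1, 4081, 4750 and 2370 in YAP1-FAM118B and 1304, 2559 and 980 in YAP1-TFE3.

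Of a further 32 genes known from astrocytes, 14 were lower and 5 higher in YAP1-TFE3 (median -1.26). In YAP1-MAMLD1-dR3R1 8 were lower and 5 higher (median -0.53), and in YAP1-FAM118B 1 was lower and 1 higher (median -0.70). Among all genes tested, 30%, 28.8% and 8.45% were lower in the same order, and 40.6%, 34.4% and 21.3% higher. In YAP1-MAMLD1-dR3R1 and YAP1-FAM118B the share of the 32 called lower was thus not above that of all genes. In YAP1-FAM118B DESeq2 called 7 lower and 1 higher, and a fit of only the 2 groups called 13 lower and 1 higher. The shares of all genes called in those fits are not given here. Slc6a11, the GABA transporter GAT-3 of astrocytes, was the only one lower in every fusion, at -2.71 ± 0.56, -1.84 ± 0.54 and -5.08 ± 0.63. Its naive libraries held 255, 221 and 502 CPM, the highest being replicate 3. The YAP1-FAM118B call was lost without naive replicate 1, naive replicate 3 or YAP1-FAM118B replicate 1, and in the test against 2-fold. Naive replicate 3 is also the library with the highest hypothalamus and midbrain genes, and the part of the region was not tested. Ndrg2, a marker of mature astrocytes, was lower in YAP1-MAMLD1-dR3R1 (-1.66 ± 0.31) and YAP1-TFE3 (-2.81 ± 0.32). Htra1, a secreted protease, was the gene called higher in YAP1-FAM118B (1.87 on the log2 scale).

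Some astrocyte genes of that list rose in YAP1-TFE3 tumours, where the transporters and connexins fell. Aldh1l1, the folate enzyme widely used to mark astrocytes, stood at 61.2 ± 8.57 CPM in naive cortex, 56.4 ± 16.9 in YAP1-FAM118B, 70.5 ± 20.1 in YAP1-MAMLD1-dR3R1 and 771 ± 284 in YAP1-TFE3 (SD, n = 3). Its log2 fold change in YAP1-TFE3 was 3.66 ± 0.37 (edgeR, adjusted p = 1.8e-05). Acsbg1, an acyl-CoA synthetase, was higher there by 1.66 ± 0.20 and the receptor gene Gpr37l1 by 1.39 ± 0.28, and neither was called in the other fusions. Apoe, the apolipoprotein that astrocytes and macrophages both make, was higher in YAP1-MAMLD1-dR3R1 (2.40 ± 0.38) and YAP1-TFE3 (1.68 ± 0.37) and not called in YAP1-FAM118B (0.37 ± 0.36, edgeR adjusted p = 0.451). Macrophage markers were higher in all 3 fusions, and their part was not tested.

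Transcription factors of the astrocyte lineage changed in some cases. Of 12, 3 were higher and 2 lower in YAP1-MAMLD1-dR3R1, 3 higher and 0 lower in YAP1-FAM118B, and 4 higher and 1 lower in YAP1-TFE3. The shares of all genes tested were 34.4%, 21.3% and 40.6% higher in the same order, and 28.8%, 8.45% and 30% lower. Stat3, the signal transducer of cytokine receptors, was higher in every fusion, by 2.56 ± 0.17, 1.80 ± 0.17 and 1.57 ± 0.17, and so was the Notch target Hes1, by 1.65 ± 0.27, 1.42 ± 0.27 and 1.87 ± 0.27. Id3, an inhibitor of basic helix-loop-helix factors, was higher in YAP1-MAMLD1-dR3R1 (2.73 ± 0.20) and YAP1-FAM118B (1.68 ± 0.20) and not called in YAP1-TFE3. Hes5, another Notch target, was lower in YAP1-MAMLD1-dR3R1 (-3.11 ± 0.85) and YAP1-TFE3 (-4.44 ± 0.92), and the nuclear receptor Rorb was lower in YAP1-MAMLD1-dR3R1 (-2.76 ± 0.45). Sox9, a factor needed for astrocyte formation, was called only in YAP1-TFE3, higher by 2.16 ± 0.44, as was the stem cell factor Sox2, by 1.64 ± 0.32. Both were singled out after their values were seen.

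Genes of the reactive state were higher nearly throughout. Of 12 genes known to rise in reactive astrocytes of any kind, 12 were higher in YAP1-MAMLD1-dR3R1 (median 5.14), 10 in YAP1-FAM118B (median 4.46) and 12 in YAP1-TFE3 (median 5.41), and none was lower. The shares of all genes tested that were higher were 34.4%, 21.3% and 40.6% in the same order. The filament gene Vim was higher by 5.68 ± 0.30, 6.19 ± 0.31 and 6.27 ± 0.31, and went from 36.5 ± 4.95 CPM in naive cortex to 1869 ± 456, 2670.3 ± 651 and 2821 ± 397 CPM (SD, n = 3). Vim was thus called in all 3 fusions, and Gfap in YAP1-MAMLD1-dR3R1. Cd44, a receptor for hyaluronan, was higher by 5.26 ± 0.33, 4.79 ± 0.32 and 5.49 ± 0.33, and S1pr3, a receptor for sphingosine phosphate, by 4.13 ± 0.33, 2.32 ± 0.30 and 1.72 ± 0.30. Cp, for ceruloplasmin, was higher by 5.03 ± 0.40, 1.08 ± 0.34 and 6.28 ± 0.42. Many genes of this list are also used by macrophages, fibroblasts or tumour cells, and microglia and macrophage markers were higher in 10, 9 and 9 of 10 cases in the 3 fusions. The summed CPM of 8 genes of fibroblasts and meninges was 48.5 to 126 in naive libraries, 3826 to 5464 in YAP1-MAMLD1-dR3R1, 3133 to 17945 in YAP1-FAM118B and 366 to 1672 in YAP1-TFE3 tumours, with 4, 4 and 1 of the 8 called higher. The part of those cells was not tested.

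**Figure D5:**
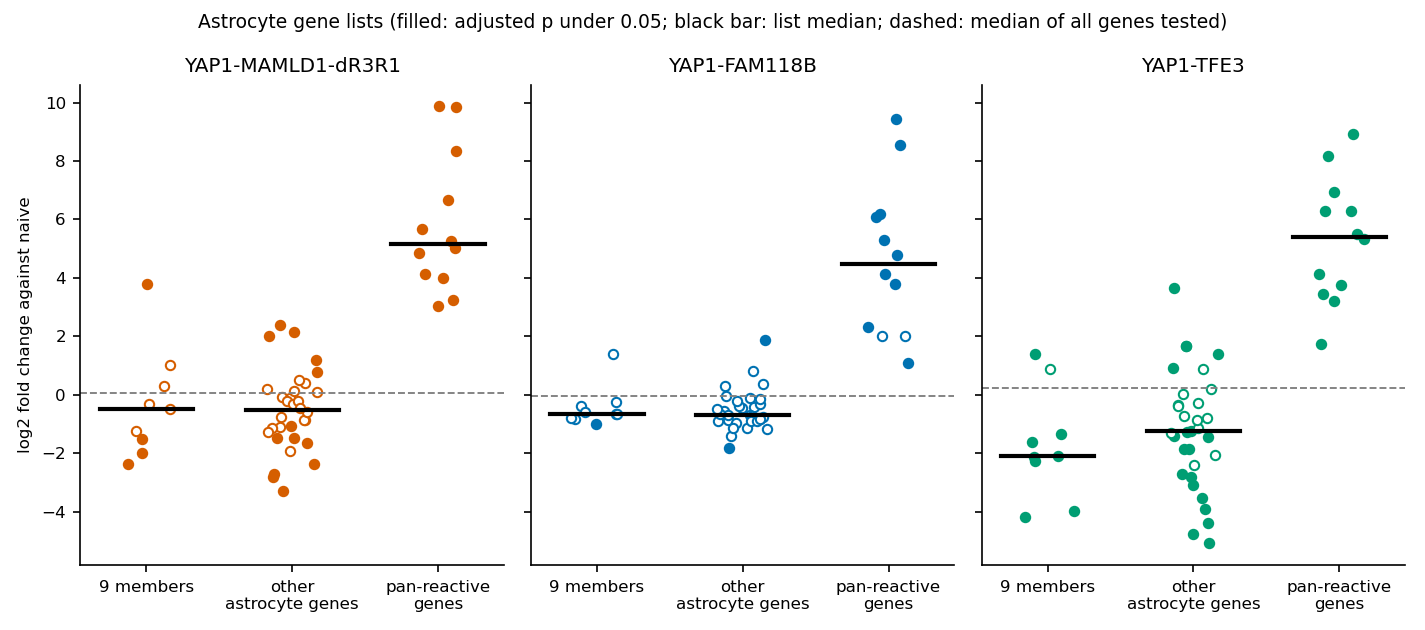
Log2 fold change against naive of the 9 astrocyte genes, 32 other astrocyte genes and 12 reactive genes in each fusion, filled where the edgeR adjusted p is under 0.05, with a black bar for the list median and a dashed line for the median of all genes tested. The reactive genes have medians of 5.14, 4.46 and 5.41, and the 9 genes of -0.48, -0.67 and -2.09.

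Among the relatives of the 9 genes as a whole, 25 in number, 11 were higher and 4 lower in YAP1-MAMLD1-dR3R1, 6 higher and 2 lower in YAP1-FAM118B, and 11 higher and 10 lower in YAP1-TFE3. The shares of all genes tested were 34.4%, 21.3% and 40.6% higher in the same order, and 28.8%, 8.45% and 30% lower. Of the filament genes beside Gfap, Nes, for the nestin of neural progenitors, was higher by 4.02 ± 0.18, 3.98 ± 0.18 and 2.39 ± 0.17. Synm, for synemin, was called in YAP1-TFE3 alone, lower by 2.36 ± 0.34. The water channel Aqp1, of the choroid plexus in the healthy brain, was higher in YAP1-MAMLD1-dR3R1 (3.44 ± 1.18, edgeR adjusted p = 0.0271), a call lost without single libraries.

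The genes whose profile over the 12 libraries lay nearest to each of the 9 were sought among 12836 tested genes with a group mean of at least 5 CPM. Likeness is the root mean square distance of the centred log2 CPM profiles, which share the libraries and their depth, and it is given as a description. Slc1a2 lay nearest to Dclk1 (0.26), with Vstm2b (0.28) also near. Gjb6 lay nearest to Sez6l2 (0.31), Aifm3 (0.34) and Ncs1 (0.34). Summed neuron markers were lower than naive in every tumour library, and their part was not tested. Aldoc had the smallest distances of all, to Nr1d1 (0.19), Oscp1 (0.19) and Gstm5 (0.20), but the distance is not scaled to how far a gene itself varies. The root mean square of Aldoc's own centred profile, 0.77, was the smallest of the 9, against 1.90 for Slc1a2. Slc1a3 lay nearest to Rgs20 (0.28), Paqr8 (0.28) and Ydjc (0.32).

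S100b lay nearest to Tmcc3 (0.28), Gpr37l1 (0.32) and Enpp4 (0.33). Gpr37l1 shows the shared pattern, with 203 ± 16.8 CPM in naive cortex, 119 ± 42.6 in YAP1-FAM118B, 224 ± 21.3 in YAP1-MAMLD1-dR3R1 and 533 ± 135 in YAP1-TFE3 (SD, n = 3). Aqp4 lay nearest to Atp1b2 (0.46), a sodium pump subunit of astrocytes, then Ppapdc1a (0.51) and Itgb8 (0.53), and Gja1 to Slc4a4 (0.38), the bicarbonate transporter of astrocytes, then Bcat1 (0.45) and Nwd1 (0.46). Fgfr3 lay nearest to Pcdhb7 (0.37), Slco1c1 (0.39) and Paqr8 (0.40). Gfap had no close neighbour, with Serpinf2 (0.86), Asap3 (0.93) and Syt15 (0.94) nearest. Among the 9 genes themselves Slc1a3 and Fgfr3 were the closest pair (0.48), Slc1a2 and Gjb6 came next (0.61), and Gfap and Gjb6 were the farthest apart (2.79).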

How the data were processed

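Bulk RNA was sequenced from 12 mouse libraries, 3 in each of 4 groups, with the groups taken from the sample titles. The authors deposited 1 raw read count per symbol and library. HTSeq and build mm10 are named in the submitters' processing notes. Aligner, annotation, strandedness and versions: not given in the sources used here. Overlapping genes on opposite strands therefore cannot be told apart. A count of 3 corresponds to 0.117 to 0.145 CPM in a library, a limit that covers counting error only.

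After filterByExpr (minimum count 10), a quasi-likelihood model of edgeR 4.0.16 (limma 3.58.1, R 4.3.3) with TMM scaling was fitted to all 12 libraries. The 6 contrasts were adjusted by Benjamini-Hochberg over the 16364 genes tested, at 0.05. The SE is the log2 fold change divided by the square root of F. Log2 CPM used a prior count of 2. Within-library ratios were computed on counts plus 0.5 and tested by exact two-sided permutation of 9 tumour against 3 naive libraries (220 splits), adjusted over the 3 ratios. Exon lengths came from GENCODE M21 on GRCm38, and coordinates and promoter windows from RefSeq on GRCm38.p6. The gene listed as Ppap2b in the files stands for Plpp3.

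The members, the 16 other gene lists, the ratios and the tests were chosen with earlier results of these data known, and the lists were written from general knowledge. From each list up to 4 genes with the smallest adjusted p and up to 2 against its majority were named, with family relatives beside their member. For each member the 3 nearest genes were named, leaving out predicted and sex-linked genes. A few genes that these rules name are not reported here. Of other cell types only counts and sums were taken unless stated. Tried beside this were DESeq2 1.42.0, upper-quartile or RLE factors or none, no filter or 1 CPM in 3 libraries, a replicate block, glmTreat against 2-fold, fits of just the pair of groups, each library left out, both libraries with Xist and Y-linked reads left out, and for the ratios a pseudocount of 5. The fits were first tested on simulated data. The libraries of a group differed by more than sampling noise, so that none was counted as a repeat of another.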

Additional observations from a re-analysis of the deposited data

Results flagged for a closer look

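The following differences between fusions passed the edgeR test of the difference itself (adjusted p under 0.05, all 12 libraries in the fit). They are log2 differences of YAP1-TFE3 minus YAP1-MAMLD1-dR3R1 for Gfap (-2.93), Aqp4 (-2.63), Slc1a3 (-1.64), Gjb6 (-2.19), Fgfr3 (-1.76) and S100b (1.11). YAP1-TFE3 minus YAP1-FAM118B passed for Slc1a2 (-3.17), Slc1a3 (-1.86), Gja1 (-1.61), Gjb6 (-3.51), Fgfr3 (-1.28) and S100b (2.41). YAP1-FAM118B minus YAP1-MAMLD1-dR3R1 passed for S100b (-1.30). S100b is the gene that differed in every pair of fusions, and it ran highest in YAP1-TFE3 and lowest in YAP1-FAM118B, with no overlap between the 3 groups. Its call between YAP1-TFE3 and YAP1-MAMLD1-dR3R1 was lost without YAP1-MAMLD1-dR3R1 replicate 3 or YAP1-TFE3 replicate 1.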

How the results depend on the processing

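Over all contrasts, the values of the 9 genes kept their direction and side of the threshold in 585 of 648 cases with 1 library left out and in 498 of 540 with another setting. Counts of called genes follow in 1 order: the MAMLD1, FAM118B and TFE3 fusions against naive, FAM118B and TFE3 each against MAMLD1, and TFE3 against FAM118B, with 4, 1, 8, 1, 6 and 6 as reported. Tested against 2-fold (glmTreat), they fell to 1, 0, 5, 0, 1 and 4. Of the 9 genes, at an unadjusted p under 0.05, edgeR called 1 and 5 in the YAP1-FAM118B comparisons with naive and with YAP1-MAMLD1-dR3R1, and DESeq2 called 1 and 3 at the adjusted threshold. With only the 2 groups fitted, the YAP1-FAM118B counts were 6 and 2. Leaving out each library in turn gave 2 to 5, 0 to 2, 7 to 8, 1 to 4, 2 to 7 and 4 to 7.

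The replicate numbers did not pair the libraries: deviations of same-numbered libraries correlated at -0.11 to 0.32, above 0.1 in 4 of 18 pairs. With the replicate number as a block the counts were 4, 1, 8, 1, 6 and 5, Slc1a2 in YAP1-TFE3 against YAP1-MAMLD1-dR3R1 was gained, and Gjb6 there and Gja1 in YAP1-TFE3 against YAP1-FAM118B were lost. Permutation tests of the ratios were also run within replicate numbers (64 splits). There the differences of -1.59 (Slc1a2 over Slc1a3) and 4.25 (Gfap over Slc1a2) each had an adjusted p of 0.0703. This p counts splits with a difference at least as large in either direction, while the main test derives its p from the smaller tail. Leaving out the pair of libraries with Xist and Y-linked reads, these differences were -1.69 and 4.45 (adjusted p 0.133 each, exact permutation test). With fewer libraries the smallest p that the test allows is larger, so no conclusion is drawn from this loss. With 1 library left out the 3 ratios ranged from -1.75 to -1.32 (Slc1a2 over Slc1a3), from 0.70 to 1.13 (Gja1 over Gjb6) and from 3.92 to 4.85 (Gfap over Slc1a2).

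Values that changed sign were not called in any setting. With 1 library left out, Aqp4 in YAP1-FAM118B against naive ranged from -1.02 to 0.0227 (the latter without YAP1-FAM118B replicate 3) and Gfap in YAP1-TFE3 from -0.736 (without YAP1-TFE3 replicate 2) to 1.15. Slc1a3 in YAP1-FAM118B minus YAP1-MAMLD1-dR3R1 ranged from -0.0797 (without YAP1-FAM118B replicate 2) to 0.457, and was -0.0785 without the pair of libraries with Xist and Y-linked reads. Aldoc in YAP1-TFE3 minus YAP1-MAMLD1-dR3R1 ranged from -0.54 (without YAP1-TFE3 replicate 2) to 0.419, and was -0.000224 with library size only. The cause was not tested. Another scaling moved the median of all genes by up to -0.21 in contrasts with YAP1-TFE3. At these depths counting error is small beside the spread between the 3 libraries of a group, which limits what can be called.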
